A study of Mus musculus with 16 samples.

Results

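The genes described here encode the mitochondrial ribosomal proteins, the protein parts of the ribosome that works inside mitochondria. They were chosen by name, as every feature whose symbol is Mrpl (large subunit) or Mrps (small subunit) followed by a number and at most 1 further letter from a to d. The rule took 76 of the 31274 features of the table and used no measured value. The members were nonetheless chosen with earlier results of these data known. All 76 passed the filter on low values, which asked for 1 FPKM or more on average across libraries, so every member was tested. FPKM is an expression level in sequenced fragments, already divided by transcript length and by sequencing depth.

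The whole uterus of 2 mouse strains was profiled by RNA-seq, PgrcrePgrBLsL/+ (PRB) and PgrcrePgrALsL/+ (PRA), both carrying a Cre-activated transgene for progesterone receptor isoform B or isoform A. In each strain 4 mice were sampled 6 h after progesterone (P4) and 4 after oil, giving the groups PRB P4, PRB oil, PRA P4 and PRA oil. Mice of all 4 groups had been ovariectomized 2 weeks before, and all carried the Pgr-Cre driver, which switches the transgene on where the progesterone receptor gene Pgr is active. The labels mention an age of 8 weeks. Their treatment field speaks of mated females on day 4 of pregnancy, a conflict with the ovariectomy that could not be settled. No group without a transgene was analysed here, so that an effect shared by both transgenes has no comparison. Run codes in the sample descriptions carry the letter B for PRB and A for PRA, and within each letter lower numbers for oil than for P4, so whatever these codes stand for cannot be told apart from strain or treatment.

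Mitochondria translate the messenger RNAs of their own genome, which encode core subunits of the respiratory chain and of ATP synthase, on a ribosome of bacterial descent. Its RNAs come from the mitochondrial genome, whereas all of its proteins are encoded in the nucleus, made in the cytosol and imported. Some of these proteins have bacterial counterparts and others are found only in mitochondria. In the uterus P4 acts through Pgr, halting estrogen-driven growth of the epithelium and preparing the stroma for implantation.

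Total FPKM was 578463 to 595748 per library in PRB P4, 507931 to 520113 in PRB oil, 572846 to 594092 in PRA P4 and 499748 to 528785 in PRA oil, so the total was higher in every P4 library than in every oil library. Pgr itself averaged 111.9 ± 22.4 FPKM in PRB P4, 83.5 ± 4.49 in PRB oil, 73.9 ± 1.80 in PRA P4 and 64.9 ± 5.52 in PRA oil (SD, n = 4 each). With P4 the log2 difference of PRB over PRA was 0.57 for Pgr (SE 0.12; limma, adjusted p = 0.00575). The files do not separate transgene from endogenous Pgr transcripts. PRB P4 replicate 3, at 78.5 FPKM of Pgr, was below the other 3 libraries of its group (121 to 126). Markers of epithelium, stroma, smooth muscle and endothelium were detected in all groups. Of 4 smooth muscle markers, 1 rose and 1 fell in PRB, and 1 rose and 0 fell in PRA. Of 3 endothelial markers, 0 were called in PRB and Pecam1 fell in PRA (-0.34). Pecam1 was also higher in PRB P4 than in PRA P4 (0.48). The 3 leukocyte markers summed to 17.6 to 44.4 FPKM in PRB P4 and 21.2 to 22.4 in PRB oil. In PRA these sums were 15.6 to 17.6 with P4 and 15.6 to 21.5 with oil, and no leukocyte marker was called. The sum of the 4 stromal markers was 748.6 to 791.5 FPKM in PRB P4, against 869 to 977 in PRB oil, and 610.0 to 735.5 in PRA P4, against 761 to 903 in PRA oil. Within this list Dcn (-0.85 in PRB and -0.98 in PRA) and Vim (-0.24 and -0.33) fell, Hoxa11 rose by 1.33 in PRB and 1.42 in PRA, and the remaining marker was not called (limma). The 3 tested markers of ovary and oviduct, led by Inha, summed to 23.2 to 23.5 FPKM in PRB P4, against 30.5 to 43.5 in PRB oil, and 20.4 to 23.0 in PRA P4, against 32.2 to 44.6 in PRA oil. Sums of the 5 epithelial markers overlapped, at 555 to 725 FPKM in PRB P4, 548 to 611 in PRB oil, 506 to 680.2 in PRA P4 and 533 to 608 in PRA oil. Of these, Krt8 rose in both strains, by 0.28 in PRB and 0.35 in PRA, while Krt18 (-0.63) and Epcam (-0.42) fell in PRA. The 3 adipose markers summed to 54.6 to 179.7 FPKM in PRB P4, 69.1 to 320.2 in PRB oil, 66.6 to 198.5 in PRA P4 and 60.7 to 475.6 in PRA oil, and none was called, with medians of -0.61 in PRB and -0.79 in PRA. In bulk tissue, fewer cells of a type and less RNA per cell cannot be told apart, and the part of these marker differences in the results that follow was not tested.

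In both strains nearly all mitochondrial ribosomal protein mRNAs were higher after P4. In PRB uteri 69 of the 76 members rose and 2 fell (limma on log2(FPKM + 1), all 16 libraries in 1 fit, adjusted p under 0.05), where 36.2% of all features tested rose and 32.9% fell. In PRA uteri 69 rose and 1 fell, where 36.6% of all features rose and 33.2% fell. Under quantile normalization, the scaling that moved these counts most, 56 members rose and 3 fell in PRB, and 60 rose and 5 fell in PRA. The 2 lower members in PRB numbered 0 without PRB oil replicate 1 or PRB P4 replicate 3, and 1 without PRB oil replicate 2. The median log2 change of the members was 0.52 in PRB (range -0.15 to 1.32) and 0.53 in PRA (range -0.22 to 1.39), against 0 and 0.01 for the median of all features. Standard errors of these changes lay between 0.038 and 0.10. The P4 libraries lay wholly above the oil libraries for 67 members in PRB and 68 in PRA, a pattern seen in 32.6% of all features in PRB and 35% in PRA. They lay wholly below for 2 members in PRB and 1 in PRA, against 28.5% and 31.2% of all features.

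Added over the 76 members, the level was 3522 ± 57.9 FPKM in PRB P4, against 2449 ± 62.9 in PRB oil, and 3611 ± 53.7 in PRA P4, against 2470 ± 136 in PRA oil (SD, n = 4 each). The share of total FPKM was 0.588% to 0.613% in PRB P4, 0.462% to 0.487% in PRB oil, 0.612% to 0.626% in PRA P4 and 0.456% to 0.506% in PRA oil. Each P4 library was above each oil library in both measures, so the members took a larger share of a total that was itself larger with P4. The rise was a broad one: 39 members in PRB and 41 in PRA gained more than 0.5 on the log2 scale, and 4 in each strain gained more than 1. The middle of the distribution was alike, with quartiles of 0.28 and 0.72 in PRB and 0.35 and 0.72 in PRA. The plot of all members by library shows the P4 columns of both strains in red down most of its length.

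**Figure D1:**
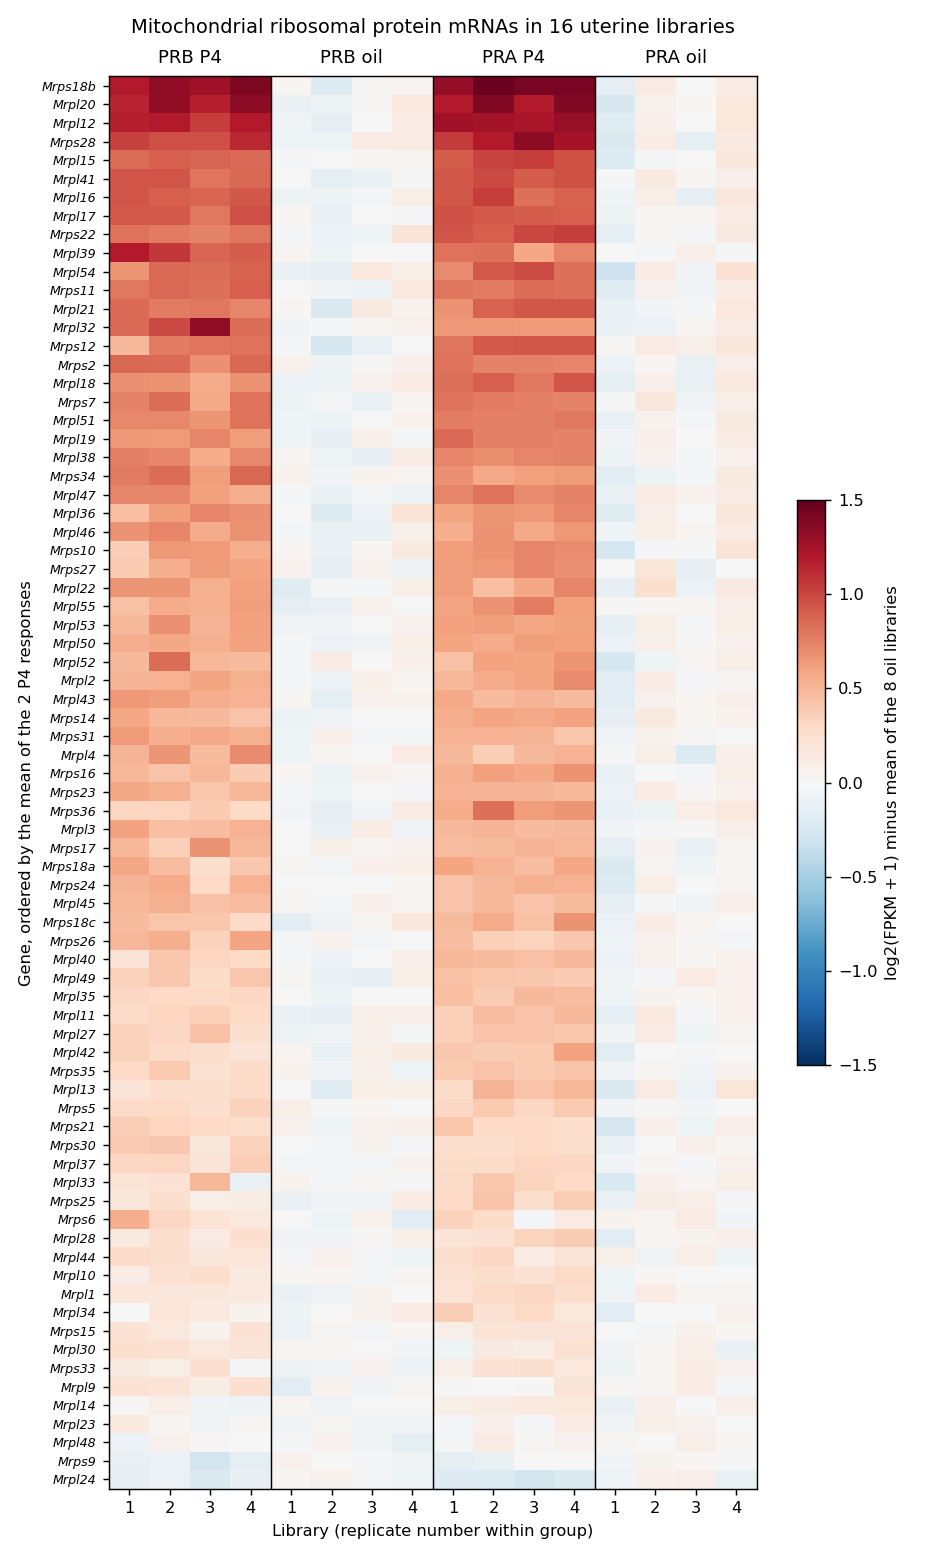
Each row is 1 of the 76 members and each column 1 of the 16 libraries, coloured by log2(FPKM + 1) minus the mean of the 8 oil libraries. Red P4 columns are seen for most members in both strains, the largest changes stand at the top (Mrps18b, Mrpl20, Mrpl12) and the faint or blue rows at the bottom hold Mrpl23, Mrpl48, Mrps9 and Mrpl24.

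Mrps18b, which encodes a protein of the small subunit, rose most in both strains. Its level was 62.3, 68.8, 66.0 and 72.5 FPKM in the PRB P4 libraries, against 27.4, 23.4, 27.1 and 27.7 in the PRB oil libraries. In the PRA P4 libraries it was 68.4, 75.7, 73.4 and 73.4 FPKM, against 24.2, 29.3, 26.5 and 29.0 in the PRA oil libraries. All P4 libraries lay above 60 FPKM and all oil libraries below 30. The log2 difference was 1.32 in PRB (SE 0.070, limma, adjusted p = 9.59e-10) and 1.39 in PRA (SE 0.070, adjusted p = 7.31e-10).

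Mrpl20, a protein of the large subunit with a bacterial counterpart that binds early during ribosome assembly in bacteria, came second in both strains. It was measured at 80.02, 91.1, 81.2 and 91.9 FPKM in PRB P4, against 33.3, 33.7, 36.1 and 39.7 in PRB oil. In PRA P4 the values were 82.7, 94.6, 82.2 and 95.2 FPKM, against 29.9, 37.2, 36.4 and 39.8 in PRA oil. The groups were far apart in both strains, with log2 differences of 1.25 in PRB (SE 0.087, limma, adjusted p = 1.36e-08) and 1.29 in PRA (SE 0.087, adjusted p = 1.03e-08). Mrpl12 encodes the stalk protein of the large subunit, which contacts translation factors. It stood at 121.9, 124.7, 111.4 and 124.5 FPKM in PRB P4, against 51.9, 49.6, 54.4 and 58.4 in PRB oil. In PRA P4 it stood at 130.1, 129.1, 127.4 and 135.4 FPKM, against 47.5, 56.7, 53.9 and 60.6 in PRA oil. No P4 library came near an oil library, and the log2 differences were 1.16 in PRB (SE 0.068, limma, adjusted p = 2.62e-09) and 1.25 in PRA (SE 0.068, adjusted p = 1.48e-09).

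Mrps28, a small subunit protein, followed in PRA, with 50.4, 55.6, 61.8 and 57.8 FPKM in PRA P4, against 20.3, 25.8, 21.5 and 26.2 in PRA oil. In PRB P4 it had 49.4, 47.5, 47.4 and 53.2 FPKM, against 22.8, 22.6, 26.1 and 25.9 in PRB oil. Every P4 library exceeded every oil library of either strain. The log2 difference was 0.99 in PRB (SE 0.086, limma, adjusted p = 1.14e-07) and 1.24 in PRA (SE 0.086, adjusted p = 1.27e-08). Mrpl15, a large subunit protein conserved with bacteria, had 15.5, 16.2, 15.96 and 15.6 FPKM in PRB P4, against 8.10, 8.32, 8.36 and 8.49 in PRB oil. It had 16.4, 17.7, 17.9 and 17.0 FPKM in PRA P4, against 7.05, 8.13, 8.27 and 9.40 in PRA oil. The groups did not overlap, and the log2 differences were 0.85 in PRB (SE 0.062, limma, adjusted p = 1.84e-08) and 0.99 in PRA (SE 0.062, adjusted p = 4.63e-09).

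**Figure D2:**
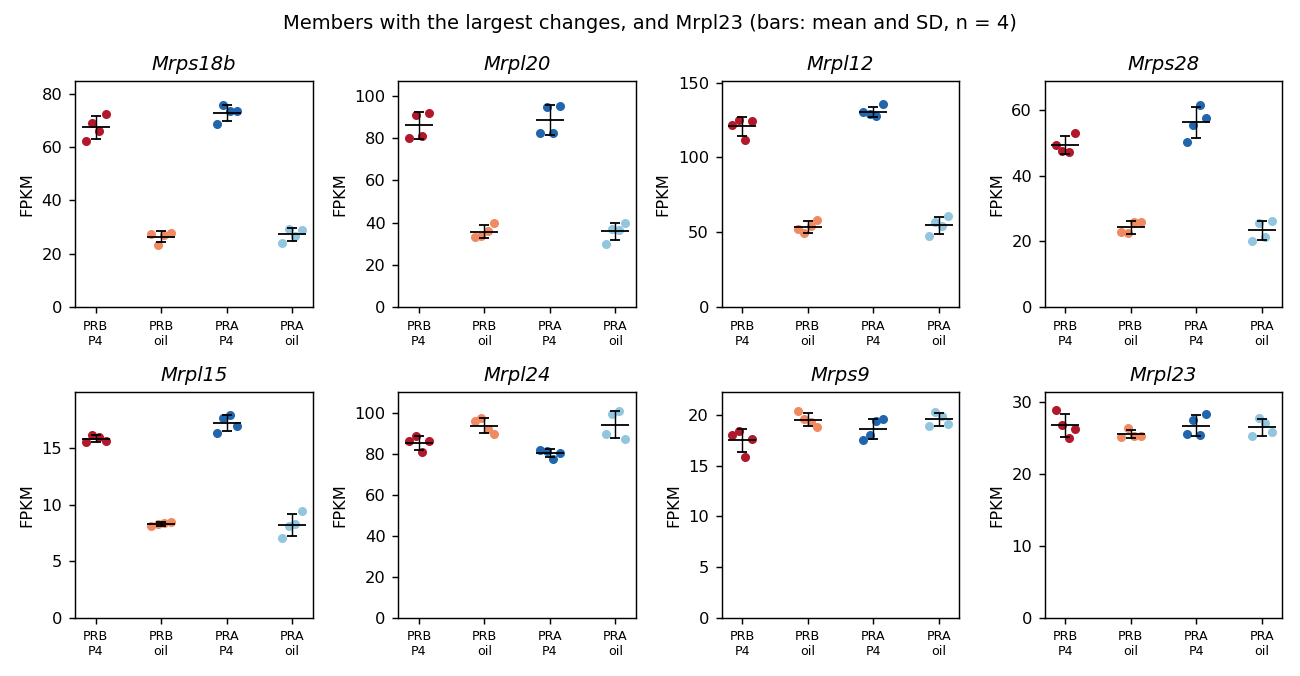
FPKM in each library (points) with the mean and SD of 4 libraries. Panels show the 5 members with the largest increases in PRA, then Mrpl24 and Mrps9, and Mrpl23, which passed the test in neither strain. The first 5 panels show a gap between P4 and oil in both strains, the panels of Mrpl24 and Mrps9 show P4 means below oil means, and in that of Mrpl23 all groups lie on 1 level near 26 FPKM.

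Mrpl39 and Mrpl32 completed the 5 largest increases in PRB. Mrpl39 encodes a mitochondria-specific large subunit protein, and Mrpl32 one that is conserved with bacteria and is trimmed by a mitochondrial protease before it enters the ribosome. Mrpl39 was measured at 22.4, 20.4, 17.8 and 18.3 FPKM in PRB P4, against 9.51, 8.85, 9.26 and 9.34 in PRB oil. Its log2 difference was 1.01 in PRB (SE 0.069, limma, adjusted p = 1.09e-08). Mrpl32 was measured at 53.7, 59.7, 75.6 and 53.2 FPKM in PRB P4, against 28.7, 28.8, 30.0 and 31.0 in PRB oil. The third PRB P4 library was well above the other three, yet all 4 exceeded every oil library, and the log2 difference was 0.99 (SE 0.088, limma, adjusted p = 1.45e-07). In PRA oil Mrpl39 had 9.20, 9.08, 9.79 and 9.08 FPKM and Mrpl32 had 27.4, 27.7, 30.3 and 32.1, below all their PRA P4 values, which are given with the strain comparison. Both genes also rose in PRA, Mrpl39 by 0.73 (SE 0.069, limma, adjusted p = 2.73e-07) and Mrpl32 by 0.65 (SE 0.088, adjusted p = 1.15e-05).

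The promoters of the 5 genes that rose most in PRB and of Mrpl24, the member that fell in both strains, are shown because these genes moved in opposite directions. Another protein-coding gene overlaps Mrpl24, so its measured level may include reads of that gene. Each promoter is the window of 250 bases before to 50 bases after the gene's RefSeq start in GRCm38.p6 (the mm10 assembly), read 5′ to 3′ on the gene's own strand. RefSeq and GENCODE starts can differ. The window of Mrps18b lies wholly outside the gene's GENCODE span, and that of Mrpl39 wholly inside it. In order the windows are chr17:35916391-35916690 (minus strand), chr4:155802628-155802927 (plus), chr11:120484387-120484686 (plus), chr16:84735195-84735494 (minus), chr13:14612988-14613287 (minus) and chr3:87919294-87919593 (plus). Capitals mark matches on either strand to the letters searched for NRF1 (GCGC, any base, TGCGC), ETS factors (CCGGAAG), YY1 (AAGATGGCG) and the E-box (CACGTG).
Mrps18b: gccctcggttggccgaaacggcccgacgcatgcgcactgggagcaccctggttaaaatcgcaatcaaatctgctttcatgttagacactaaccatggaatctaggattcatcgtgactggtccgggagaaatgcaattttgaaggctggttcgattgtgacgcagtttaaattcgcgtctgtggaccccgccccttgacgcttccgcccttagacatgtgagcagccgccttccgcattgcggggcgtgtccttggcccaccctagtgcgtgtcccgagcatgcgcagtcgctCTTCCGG
Mrpl20: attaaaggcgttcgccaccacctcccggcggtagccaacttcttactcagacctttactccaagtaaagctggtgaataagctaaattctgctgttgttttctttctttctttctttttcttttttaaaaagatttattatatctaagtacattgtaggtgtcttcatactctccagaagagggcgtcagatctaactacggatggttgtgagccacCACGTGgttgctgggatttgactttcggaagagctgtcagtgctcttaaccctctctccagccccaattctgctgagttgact
Mrpl12: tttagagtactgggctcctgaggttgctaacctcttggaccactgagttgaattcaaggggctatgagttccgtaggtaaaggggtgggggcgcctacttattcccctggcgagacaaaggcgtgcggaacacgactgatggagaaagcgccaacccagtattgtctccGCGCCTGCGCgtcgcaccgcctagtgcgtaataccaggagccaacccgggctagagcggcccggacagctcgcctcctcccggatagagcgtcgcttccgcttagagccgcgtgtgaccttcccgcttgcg
Mrpl39: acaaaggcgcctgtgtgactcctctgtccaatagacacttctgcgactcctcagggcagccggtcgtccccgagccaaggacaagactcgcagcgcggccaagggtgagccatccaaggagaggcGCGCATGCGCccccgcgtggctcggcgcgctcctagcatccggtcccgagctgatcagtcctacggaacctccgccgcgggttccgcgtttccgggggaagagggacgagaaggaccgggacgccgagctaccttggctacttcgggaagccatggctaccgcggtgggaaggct
Mrpl32: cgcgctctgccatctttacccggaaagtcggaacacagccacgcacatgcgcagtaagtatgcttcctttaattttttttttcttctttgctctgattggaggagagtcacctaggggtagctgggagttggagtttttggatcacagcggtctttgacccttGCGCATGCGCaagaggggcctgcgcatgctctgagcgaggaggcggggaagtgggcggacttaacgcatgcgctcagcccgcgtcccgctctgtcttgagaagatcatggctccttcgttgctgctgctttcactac
Mrpl24: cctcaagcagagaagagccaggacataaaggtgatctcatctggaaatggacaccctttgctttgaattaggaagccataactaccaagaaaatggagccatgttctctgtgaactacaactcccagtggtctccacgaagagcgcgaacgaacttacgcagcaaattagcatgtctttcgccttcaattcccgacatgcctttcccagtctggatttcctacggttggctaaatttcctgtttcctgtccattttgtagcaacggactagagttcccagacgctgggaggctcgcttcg

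Mrps18b held an ETS match, Mrpl20 an E-box, Mrpl12, Mrpl39 and Mrpl32 a match to NRF1 each, and Mrpl24 none of the 4. Matches did not follow direction throughout. Mrps9, which fell in PRB, held an NRF1 match, while Mrpl16, Mrpl41, Mrpl47 and Mrps2, which rose in both strains, held none of the 4. NRF1 and the ETS factor GABP are known as activators of nuclear genes for mitochondrial proteins, and the E-box is the site that Myc and its partner bind. Of the 76 members, 67 had a promoter in the RefSeq table. The ETS letters were found in 24 of these (35.8%), against 18.7% of 10508 tested genes and 9.93% of all 27025 genes in that table. The NRF1 letters were found in 12 (17.9%, against 10.6% of tested and 5.19% of all), and the YY1 letters in 8 (11.9%, against 3.26% and 1.64%), with no YY1 match overlapping an ETS match. At least 1 of these 3 was present in 39 members (58.2%, against 29.1% and 15.1%). The E-box was found in 5 (7.46%, against 11.6% and 8.09%), the SP-factor letters GGGCGGG in 28 (41.8%, against 51.2% and 27.9%) and CCAAT in 27 (40.3%, against 42.3% and 41.1%). The letters of a progesterone response element (G, any base, ACA, any 3 bases, TGT, any base, C) were found in 0 members, against 0.409% of tested and 0.537% of all genes.

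Responses of members with and without a match are given as a description. Members with the NRF1 letters had a median log2 change of 0.37 in PRB and 0.37 in PRA, against 0.52 and 0.53 in those without. Members with the ETS letters had medians of 0.53 in PRB and 0.57 in PRA, against 0.39 and 0.49 in those without. These are counts of letters in a short window near the start of the gene, with no measurement of binding.

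The rise was seen in both ribosomal subunits. With Mrps30 and Mrps18a counted in the large subunit, where structures of the mammalian ribosome place them, 43 of 49 large subunit members rose in PRB and 44 in PRA, with 1 lower in each strain. Of 26 small subunit members, 25 rose and 1 fell in PRB, and 24 rose and 0 fell in PRA. The median log2 change was 0.53 in PRB and 0.50 in PRA for the large subunit, and 0.51 and 0.53 for the small one. Members with a bacterial counterpart (46) had 40 risers in each strain, and those specific to mitochondria (29) had 28 in each. For comparison, 90.8% of all 76 members rose in each strain, as did 36.2% of all features in PRB and 36.6% in PRA. Differences between these parts were not tested. Mrps18a and Mrps18b are counted among those specific to mitochondria, although they are related to bacterial S18. Mrps36 belongs to neither subunit, since its protein was found to be a part of the 2-oxoglutarate dehydrogenase complex, and it rose in both strains.

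The 3 paralogues related to bacterial S18 are Mrps18a, Mrps18b and Mrps18c. Mrps18b is described above. Mrps18a, whose protein sits in the large subunit, had 62.1, 57.1, 49.7 and 54.9 FPKM in PRB P4, against 42.2, 40.7, 43.5 and 44.2 in PRB oil. Mrps18c, a small subunit protein like Mrps18b, had 18.9, 18.1, 18.01 and 16.5 FPKM in PRB P4, against 11.8, 12.5, 13.6 and 15.2 in PRB oil. The P4 libraries were above the oil libraries in both genes, by 0.38 for Mrps18a (SE 0.068, limma, adjusted p = 0.000154) and 0.41 for Mrps18c (SE 0.075, adjusted p = 0.000209). Under quantile normalization the PRB call of Mrps18a was lost, at 0.13 (adjusted p = 0.0899). In PRA P4, Mrps18a had 62.6, 59.3, 57.3 and 61.8 FPKM, against 35.3, 42.5, 39.2 and 42.1 in PRA oil. Mrps18c had 18.9, 20.1, 18.5 and 21.9 FPKM in PRA P4, against 12.4, 14.5, 13.7 and 13.2 in PRA oil. Again the groups did not overlap, and the log2 differences were 0.59 for Mrps18a (SE 0.068, limma, adjusted p = 2.02e-06) and 0.53 for Mrps18c (SE 0.075, adjusted p = 1.86e-05). How far the 3 genes differ from each other in response was not tested.

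Levels differed widely between members. Their mean FPKM ran from 7.18 to 128.7 in PRB P4, from 6.16 to 96.8 in PRB oil, from 7.79 to 131.5 in PRA P4 and from 6.46 to 94.1 in PRA oil. Over all 16 libraries Mrpl36, a very small protein of the large subunit, was highest with a mean of 106.7 FPKM, followed by Mrps21, of the small subunit, with 106.3 and Mrpl12 with 89.8. Mrpl36 had 113.9, 128.7, 137.9 and 134.3 FPKM in PRB P4, against 83.3, 72.2, 77.8 and 95.4 in PRB oil, and its groups did not overlap. It rose by 0.65 in PRB (SE 0.088, limma, adjusted p = 1.23e-05) and by 0.64 in PRA (SE 0.088, adjusted p = 1.31e-05), with 125.8, 131.5, 130.1 and 138.5 FPKM in PRA P4, against 73.2, 88.4, 82.6 and 93.0 in PRA oil. Mrps21 had 122.2, 118.3, 116.8 and 113.8 FPKM in PRB P4, against 98.8, 90.4, 98.5 and 99.3 in PRB oil. It rose by 0.28 in PRB (SE 0.065, limma, adjusted p = 0.00136) and by 0.35 in PRA (SE 0.065, adjusted p = 0.000213), with 126.3, 116, 116.2 and 113.8 FPKM in PRA P4, against 79.8, 99.5, 90.2 and 101 in PRA oil. Both calls of Mrps21 were lost under quantile normalization, with 6.19e-05 in PRB (adjusted p = 1) and 0.10 in PRA (adjusted p = 0.199).

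The lowest members were Mrpl1, of the stalk at the tRNA exit side, with a mean of 6.89 FPKM over 16 libraries, Mrpl35 with 8.36 and Mrpl19 with 10.1, all conserved proteins of the large subunit. Mrpl1 had 7.24, 7.22, 7.18 and 7.07 FPKM in PRB P4, against 5.74, 6.04, 6.57 and 6.27 in PRB oil. It rose by 0.19 in PRB (SE 0.052, limma, adjusted p = 0.00377) and by 0.24 in PRA (SE 0.052, adjusted p = 0.000825), with 7.42, 7.91, 8.04 and 7.77 FPKM in PRA P4, against 5.96, 6.97, 6.50 and 6.41 in PRA oil. Mrpl19 had 12.1, 12.1, 12.9 and 11.9 FPKM in PRB P4, against 6.99, 6.68, 7.82 and 7.24 in PRB oil. It rose by 0.70 in PRB (SE 0.052, limma, adjusted p = 2.75e-08) and by 0.74 in PRA (SE 0.052, adjusted p = 1.43e-08), with 14.1, 13.2, 13.1 and 13.0 FPKM in PRA P4, against 7.13, 7.80, 7.31 and 8.00 in PRA oil. Both low genes thus had P4 libraries wholly above oil libraries, and across the 76 members the oil level and the log2 change were weakly related, with Spearman's rho of -0.178 in PRB and -0.190 in PRA, as a description over genes of the same libraries.

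Mrpl24, a conserved large subunit protein, was the 1 member that fell in both strains. The protein-coding gene Rrnad1 overlaps Mrpl24, so reads of these genes may not be told apart. The part of this overlap in the fall was not tested. Mrpl24 was measured at 86.2, 88.5, 80.6 and 86.1 FPKM in PRB P4, against 95.9, 97.2, 92.2 and 89.4 in PRB oil. In PRA P4 it was measured at 81.9, 81.2, 77.6 and 80.5 FPKM, against 89.7, 99.1, 100.6 and 87.1 in PRA oil. The P4 libraries lay below the oil libraries in both strains, by a small margin. The log2 difference was -0.13 in PRB (SE 0.050, limma, adjusted p = 0.0274) and -0.22 in PRA (SE 0.050, adjusted p = 0.000952). In PRB the call was lost without PRB oil replicate 1 (adjusted p = 0.0674), without PRB oil replicate 2 (0.0766) and without PRB P4 replicate 3 (0.0804).

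Mrps9, a conserved small subunit protein, fell in PRB and was not called in PRA. It had 18.1, 18.4, 15.9 and 17.7 FPKM in PRB P4, against 20.4, 19.6, 19.3 and 18.9 in PRB oil. It had 17.6, 18.1, 19.4 and 19.6 FPKM in PRA P4, against 19.0, 20.3, 19.9 and 19.1 in PRA oil. The groups did not overlap in PRB and did in PRA, and the log2 difference was -0.15 in PRB (SE 0.051, limma, adjusted p = 0.0164) and -0.07 in PRA (SE 0.051, adjusted p = 0.268). The PRB call was lost without PRB oil replicate 1 (adjusted p = 0.0520) and without PRB P4 replicate 3 (adjusted p = 0.0514). Under quantile normalization Mrps9 was also called lower in PRA, at -0.13 (adjusted p = 0.0282). The difference of the responses was -0.09 (SE 0.072, adjusted p = 0.604), so a difference between the strains was not shown.

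Mrpl23, near the exit of the peptide tunnel, and Mrpl48, a mitochondria-specific protein, passed the test in neither strain. Mrpl23 had 28.9, 26.8, 25.01 and 26.3 FPKM in PRB P4, against 25.2, 26.4, 25.3 and 25.4 in PRB oil, and 25.6, 27.6, 25.5 and 28.4 FPKM in PRA P4, against 25.2, 27.8, 27.2 and 25.9 in PRA oil. Mrpl48 had 22.6, 25.2, 24.4 and 24.3 FPKM in PRB P4, against 23.9, 25.2, 23.3 and 21.8 in PRB oil, and 23.9, 26.5, 24.5 and 25.3 FPKM in PRA P4, against 24.5, 24.2, 25.8 and 24.5 in PRA oil. All these groups overlapped. The log2 differences of Mrpl23 were 0.06 in PRB (SE 0.050, limma, adjusted p = 0.277) and 0.012 in PRA (SE 0.050, adjusted p = 0.851), and those of Mrpl48 were 0.033 in PRB (SE 0.049, adjusted p = 0.563) and 0.014 in PRA (SE 0.049, adjusted p = 0.809). Under quantile normalization Mrpl23 was called lower in PRA, at -0.12 (adjusted p = 0.0498). Processed pseudogenes are annotated for both, and reads could be shared with such copies. The protein-coding gene Rab6a also overlaps Mrpl48, so reads of these genes may not be told apart. Members that rose carry such overlaps too, as given with the gene positions.

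Of the 69 risers of each strain, 66 were the same genes, 95.7% of each list. With 69 of 76 called in each strain a much smaller overlap was not possible, and over all features 88.3% of those that rose in PRB also rose in PRA, and 87.2% the other way round. Mrpl9, Mrpl30 and Mrps6 rose in PRB and were not called in PRA, and Mrpl14, Mrpl33 and Mrpl34 rose in PRA and were not called in PRB. None of these 6 rises kept its call under quantile normalization. In PRB Mrps6 then stood at 0.07 (adjusted p = 0.504), Mrpl9 at -0.017 (0.809) and Mrpl30 at -0.061 (0.314). In PRA Mrpl33 stood at 0.10 (adjusted p = 0.391), Mrpl34 at 0.12 (0.116) and Mrpl14 at -0.11 (0.0479, called lower). Under the same normalization Mrpl14 was called lower in PRB as well, at -0.26 (adjusted p = 0.000142), and Mrpl9 was called lower in PRA, at -0.17 (adjusted p = 0.0156). The rise of Mrpl14 in PRA was small, 0.12 (limma, adjusted p = 0.0445), with an adjusted p of 0.157 without PRA oil replicate 1. Leaving out PRA P4 replicate 1 brought Mrpl30 past the threshold in PRA, at 0.16 (limma, adjusted p = 0.00924), and leaving out PRB P4 replicate 4 brought Mrpl33 past it in PRB, at 0.30 (adjusted p = 0.00528). Across the 76 members the log2 changes in the strains, which rest on separate oil groups, had a Pearson's r of 0.928 and a Spearman's rho of 0.928, given as a description over genes that share libraries within each strain. The test of the difference itself called 0 of 76 members (limma), against 1.47% of all features higher and 0.811% lower in PRB than in PRA. At an unadjusted p under 0.05 it had 9 members, against 16.5% of all features. The lowest adjusted p was 0.156, and the differences lay between -0.29 and 0.35.

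**Figure D3:**
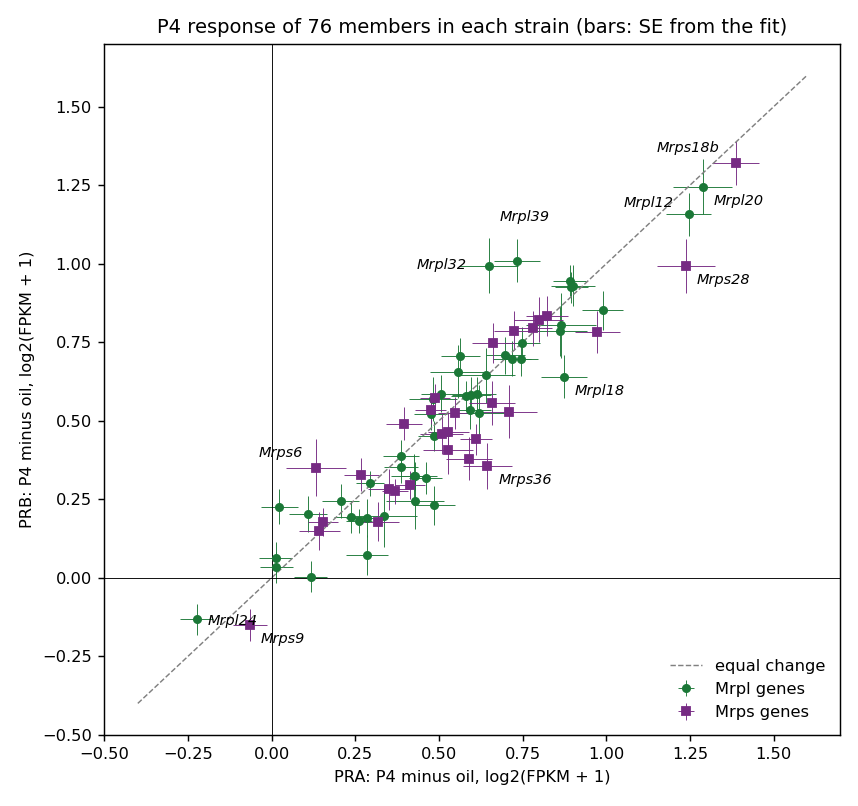
Log2 change with P4 in PRB (vertical) against that in PRA (horizontal) for the 76 members, with bars of 1 SE from the fit and a dashed line of equal change; the symbols separate Mrpl from Mrps genes. The points follow the dashed line, with Mrps18b, Mrpl20 and Mrpl12 at the top and Mrpl24 and Mrps9 below 0.

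Without P4 no strain difference was called in these genes. For PRB oil against PRA oil, limma called 0 of 76 members, with log2 differences between -0.20 and 0.10 and a lowest adjusted p of 0.757. At an unadjusted p under 0.05 there were 2 members, against 5.21% of all features, of which 0.117% were called. With P4, 7 members were called between PRB and PRA, 2 of them higher in PRB and 5 lower, where 7.75% of all features were higher and 8.29% lower. With 1 library left out these counts ran from 1 to 4 higher and from 1 to 6 lower, as low as 1 higher without PRA P4 replicate 3 or PRB P4 replicate 2, and 4 higher without PRB P4 replicate 3. At an unadjusted p under 0.05 there were 20 members, against 30.7% of all features. The PRB P4 libraries lay wholly above the PRA P4 libraries for 3 members and wholly below for 13, against 9.23% and 10.9% of all features.

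Mrpl32 and Mrpl39 were higher in PRB P4 than in PRA P4. Mrpl32 had 53.7, 59.7, 75.6 and 53.2 FPKM in PRB P4, against 46.7, 46.9, 46.2 and 46.2 in PRA P4. The PRA P4 libraries were nearly equal, and all PRB P4 libraries lay above them. The log2 difference was 0.36 (SE 0.088, limma, adjusted p = 0.0143), and without PRB P4 replicate 3 it was 0.25 (adjusted p = 0.0105). Mrpl39 had 22.4, 20.4, 17.8 and 18.3 FPKM in PRB P4, against 17.0, 17.1, 14.4 and 16 in PRA P4. The groups did not overlap, and the log2 difference was 0.27 (SE 0.069, limma, adjusted p = 0.0179). Its call was lost without PRA P4 replicate 3 (adjusted p = 0.0534) and without PRB P4 replicate 2 (adjusted p = 0.0503). Both calls were also lost with the 8 P4 libraries fitted alone, with adjusted p = 0.0667 for Mrpl32 and 0.0866 for Mrpl39. The difference of the P4 responses was 0.35 for Mrpl32 (SE 0.12, limma, adjusted p = 0.174) and 0.28 for Mrpl39 (SE 0.098, adjusted p = 0.168), neither of them called.

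Mrps36 showed the largest strain difference in the other direction, and it is the member whose protein is no part of the ribosome. It had 17.2, 17.1, 17.9 and 16.7 FPKM in PRB P4, against 20.2, 24.7, 21.3 and 21.9 in PRA P4. With oil it had 13.0, 12.3, 13.1 and 14.7 FPKM in PRB and 12.6, 12.7, 14.5 and 15.2 in PRA. All PRB P4 libraries lay below all PRA P4 libraries, and the log2 difference was -0.33 (SE 0.072, limma, adjusted p = 0.0073). The call was kept under all 25 alternatives, with adjusted p from 0.00573 to 0.0259. A processed pseudogene is annotated for Mrps36 as well.

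The other 4, Mrpl18, Mrpl40, Mrps16 and Mrpl35, were lower in PRB P4 by less and lost their call under many alternatives. Mrpl18, of the central protuberance of the large subunit, had 55.9, 55.6, 51.2 and 55.4 FPKM in PRB P4, against 61.8, 64.7, 60.4 and 66.8 in PRA P4. Mrpl40, a mitochondria-specific protein, had 36.2, 42.2, 39.8 and 39.1 FPKM in PRB P4, against 45.0, 44.2, 43.2 and 44.5 in PRA P4. The groups of both genes were apart, with log2 differences of -0.21 for Mrpl18 (SE 0.067, limma, adjusted p = 0.0436) and -0.17 for Mrpl40 (SE 0.050, adjusted p = 0.0360). Mrps16, a conserved small subunit protein whose loss causes a human disorder of mitochondrial translation, had 83.8, 79.8, 84.4 and 77.5 FPKM in PRB P4, against 86.3, 90.9, 89.3 and 95.3 in PRA P4. Mrpl35, a conserved large subunit protein, had 9.13, 9.02, 9.06 and 9.07 FPKM in PRB P4, against 10.2, 9.57, 10.4 and 10.3 in PRA P4. Here too the P4 groups did not overlap, and the log2 differences were -0.15 for Mrps16 (SE 0.049, limma, adjusted p = 0.0479) and -0.14 for Mrpl35 (SE 0.043, adjusted p = 0.0415). Of 25 alternatives, 18 ended the call of Mrpl35, 17 that of Mrps16, 12 that of Mrpl18 and 8 that of Mrpl40, and 5 alternatives ended all 4. In the same order of genes, the adjusted p values were 0.110, 0.148, 0.126 and 0.0887 without PRA P4 replicate 4, and 0.103, 0.0765, 0.0517 and 0.0538 without PRA P4 replicate 3. They were 0.0648, 0.0556, 0.0607 and 0.0942 without PRB P4 replicate 1, 0.0721, 0.115, 0.0661 and 0.0666 without PRB P4 replicate 4, and 0.0722, 0.0834, 0.0642 and 0.0574 with median-ratio scaling. Over all alternatives the adjusted p ran from 0.0312 to 0.119 for Mrpl35, from 0.0280 to 0.148 for Mrps16, from 0.0255 to 0.126 for Mrpl18 and from 0.0232 to 0.0942 for Mrpl40, with the direction kept in each. With oil, Mrpl18 had 32.4, 32.6, 36.1 and 37.5 FPKM in PRB and 31.0, 36.2, 31.8 and 38.02 in PRA, and Mrpl40 had 31.0, 29.7, 31.5 and 33.2 in PRB and 29.7, 33.0, 32.0 and 33.0 in PRA. Mrps16 had 60.4, 56.3, 61.98 and 60.1 FPKM in PRB oil and 54.8, 59.3, 58.6 and 62.9 in PRA oil, and Mrpl35 had 7.18, 6.71, 7.14 and 7.15 in PRB oil and 6.78, 7.44, 7.29 and 7.51 in PRA oil. The oil libraries of the strains overlapped in all 4 genes.

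**Figure D4:**
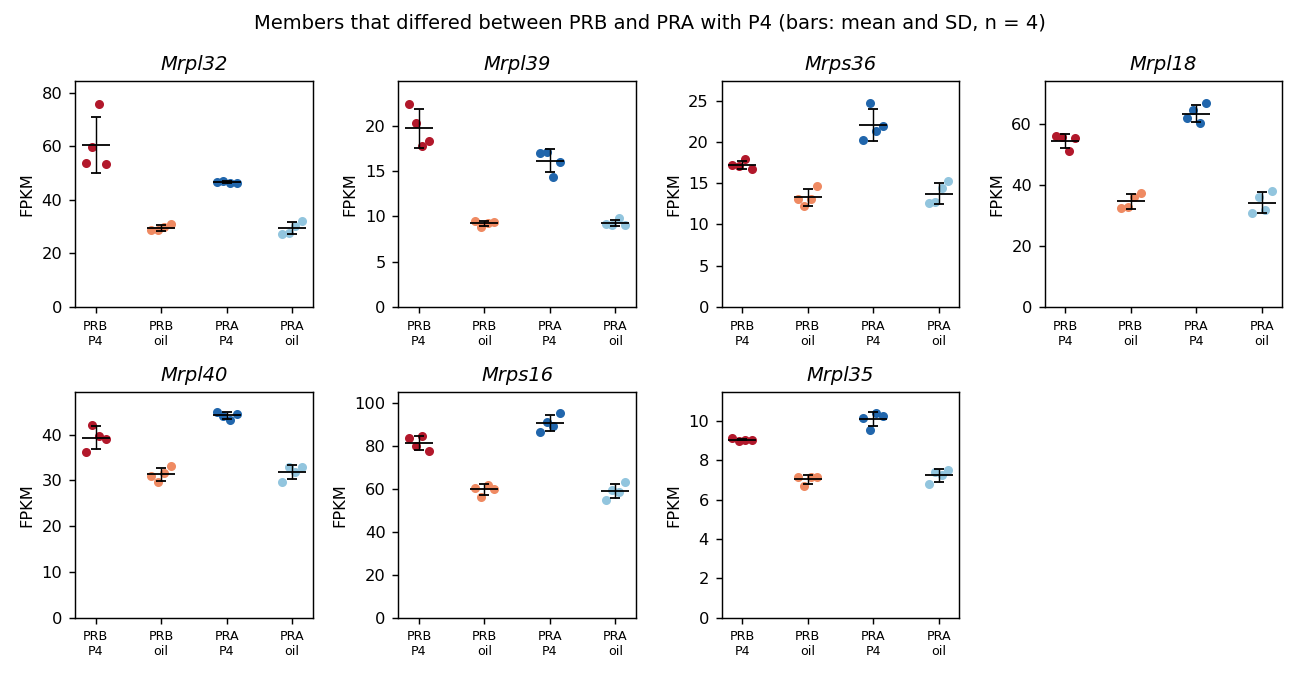
FPKM in each library (points) with the mean and SD of 4 libraries, for the 7 members called between PRB and PRA with P4. PRB P4 lies above PRA P4 for Mrpl32 and Mrpl39 and below it for the other 5, while PRB oil and PRA oil lie on 1 level in every panel.

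The other proteins of the mitoribosome carry names outside the Mrpl and Mrps pattern. Where 36.2% of all features rose in PRB and 36.6% in PRA, these rose in 7 of 7 cases in each strain. They include Mrp63, at 188.6 ± 15.2 FPKM in PRB P4, against 95.9 ± 5.53 in PRB oil (SD, n = 4 each), a log2 difference of 0.97 in PRB and 1.00 in PRA. Chchd1 rose by 0.76 in PRB and 0.80 in PRA, Ict1, a peptide-releasing protein built into the large subunit, by 0.51 and 0.60, and Gadd45gip1, which lies at the tunnel exit, by 0.71 and 0.49. The list of proteins around them is one written with earlier results known, as are the lists that follow.

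Of 23 factors that assemble the mitoribosome, 10 (43.5%) rose and 5 (21.7%) fell in PRB, and 11 (47.8%) rose and 3 (13%) fell in PRA, where 36.2% of all features rose and 32.9% fell in PRB, and 36.6% rose and 33.2% fell in PRA. Mterfd2, which brings an RNA methyltransferase to the large subunit, fell furthest, to 44.8, 39.9, 30.3 and 37.1 FPKM in PRB P4, against 154, 137.9, 128.8 and 157 in PRB oil. All P4 libraries lay far below the oil libraries, and the log2 difference was -1.91 in PRB (SE 0.099, limma, adjusted p = 8.69e-10) and -1.65 in PRA (SE 0.099, adjusted p = 3.34e-09). Rnmtl1, a methyltransferase of the large ribosomal RNA, rose by 1.05 in PRB and 1.19 in PRA, and Noa1, a GTPase needed for assembly, by 0.95 and 1.12. Mterfd1, of the same family as Mterfd2, rose by 0.71 and 0.64. Of 15 translation factors, 6 (40%) rose and 3 (20%) fell in PRB, and 7 (46.7%) rose and 2 (13.3%) fell in PRA. The shares that rose in these lists are near those of all features, and nothing is read from them. The elongation factors Tsfm, Gfm1 and Tufm rose by 1.13, 0.93 and 0.68 in PRB and by 1.16, 1.12 and 0.72 in PRA. Lrpprc, which stabilises mitochondrial messenger RNAs, rose by 0.69 and 0.88.

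Of 20 mitochondrial aminoacyl-tRNA synthetases, which charge the tRNAs, 9 (45%) rose and 7 (35%) fell in PRB, and 9 (45%) rose and 5 (25%) fell in PRA, likewise near the shares of all features. Yars2 rose by 1.00 in PRB and 1.05 in PRA, Qrsl1, which helps to charge the glutamine tRNA, by 0.84 and 1.13, Mars2 by 0.77 and 0.70, and Nars2 by 0.66 and 0.77. Of 14 genes for the copying, transcription and processing of mitochondrial nucleic acids, 9 (64.3%) rose in each strain, 1 (7.14%) fell in PRB and 2 (14.3%) fell in PRA. Of all features, 36.2% rose and 32.9% fell in PRB, and 36.6% rose and 33.2% fell in PRA. The tRNA-processing genes Elac2 and Trmt10c rose by 1.05 and 0.90 in PRB and by 0.95 and 0.81 in PRA, and Pnpt1 rose by 0.51 and 0.66. Polg2, the accessory subunit of the mitochondrial DNA polymerase, fell by 0.66 in PRB and by 0.63 in PRA. Genes for protein import and mitochondrial chaperones had 18 of 22 (81.8%) higher and 0 lower in each strain, with a median of 0.77 in PRB and 0.79 in PRA. The chaperonin genes Hspd1 and Hspe1 rose by 1.41 and 1.29 in PRB and by 1.66 and 1.54 in PRA, and the import genes Timm8a1 and Timm10 by 1.56 and 1.43 in PRB and by 1.77 and 1.46 in PRA. The 13 mRNAs encoded by the mitochondrial genome were not analysed here.

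Among 11 regulators of mitochondrial biogenesis, 6 (54.5%) rose and 2 (18.2%) fell in PRB, and 5 (45.5%) rose and 2 (18.2%) fell in PRA, where 36.2% of all features rose in PRB and 36.6% in PRA. Pprc1, the member of the PGC-1 coactivator family that responds to growth signals, had 66.5, 69.1, 60.6 and 76.2 FPKM in PRB P4, against 17.6, 16.9, 15.4 and 23.7 in PRB oil. In PRA P4 it had 60.2, 57.7, 68.9 and 61.2 FPKM, against 14.4, 17.1, 16.01 and 21.2 in PRA oil. The groups were far apart, and the log2 difference was 1.85 in PRB (SE 0.13, limma, adjusted p = 1.04e-08) and 1.81 in PRA (SE 0.13, adjusted p = 1.36e-08). Ppargc1a, the family member best known from fasting, cold and exercise, went the other way. It had 1.77, 1.02, 1.23 and 0.989 FPKM in PRB P4, against 6.75, 7.45, 7.07 and 5.52 in PRB oil, and 1.24, 1.89, 0.951 and 1.57 FPKM in PRA P4, against 8.48, 7.70, 6.53 and 7.46 in PRA oil. Every P4 library was below 2 FPKM and every oil library above 5, with a log2 difference of -1.78 in PRB (SE 0.13, limma, adjusted p = 2.91e-08) and -1.84 in PRA (SE 0.13, adjusted p = 2.19e-08). Myc, a growth-promoting transcription factor, rose by 0.90 in PRB (SE 0.13, limma, adjusted p = 2.29e-05) and by 1.02 in PRA (SE 0.13, adjusted p = 6.33e-06). Esrra, a nuclear receptor that partners with the PGC-1 coactivators, rose by 0.58 in PRB (SE 0.14, adjusted p = 0.00223) and by 0.51 in PRA (SE 0.14, adjusted p = 0.00567). Nrf1, for the factor whose letters were searched above, rose by 0.37 in PRB and 0.35 in PRA, while Gabpa, for the DNA-binding subunit of GABP, fell by 0.22 and by 0.14, and both were chosen for naming after their values were seen.

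Of all features, 36.2% rose and 32.9% fell in PRB, and 36.6% rose and 33.2% fell in PRA. For the cytosolic ribosome, 81 genes for its proteins were tested. Of these, 12 (14.8%) rose and 8 (9.88%) fell in PRB, and 14 (17.3%) rose and 16 (19.8%) fell in PRA. Both shares were below those of all features in each strain. The median log2 change was -0.02 in PRB and -0.03 in PRA. Subunits of the respiratory chain and ATP synthase, in which the products of mitochondrial translation are assembled, had 68 of 78 higher and 2 lower in PRB and 69 higher and 3 lower in PRA. Their median log2 change was 0.38 in PRB and 0.45 in PRA, against 0.52 and 0.53 for the mitochondrial ribosomal proteins. Whether these lists differ from each other was not tested.

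**Figure D5:**
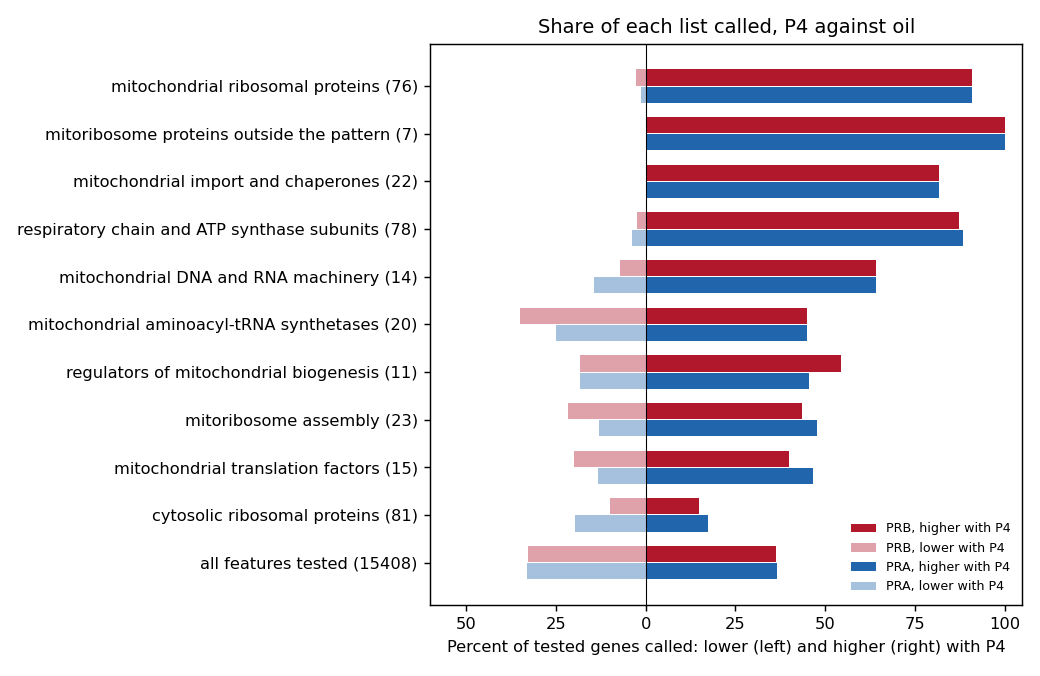
Percent of the tested genes of each list called higher (bars to the right) or lower (bars to the left) with P4, in PRB (red) and PRA (blue), with the number of tested genes in brackets. The mitochondrial ribosomal proteins reach 90.8% higher in both strains, against 36.2% and 36.6% of all features and 14.8% and 17.3% of the cytosolic ribosomal proteins.

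The members are scattered over 17 chromosomes in the GENCODE annotation of GRCm38, with at most 10 on 1 chromosome, which is chromosome 11. Mrps18b spans chr17:35910379-35916389 on the minus strand, Mrpl20 chr4:155802878-155809975 on the plus strand, Mrpl12 chr11:120484613-120489065 on the plus strand and Mrpl24 chr3:87919506-87923672 on the plus strand. In 22 cases the start of a protein-coding gene on the opposite strand lay within 1000 bases, facing away or overlapping by at most 200 bases. All 22 of these members rose in PRB and 21 in PRA. Of the 54 others, 47 rose in PRB and 48 in PRA. Over all 76 members 90.8% rose in each strain, and of all features 36.2% rose in PRB and 36.6% in PRA. Whether the 22 differ from the 54 was not tested. The neighbours behaved in varied ways. Psma2, a proteasome subunit gene 75 bases from Mrpl32, changed by 0.83 in PRB and 0.73 in PRA, and Ppp1r10, 45 bases from Mrps18b, by 0.69 and 0.57. Pnpla7, 935 bases from Mrpl41, changed by -1.51 in PRB and -1.66 in PRA where Mrpl41 changed by 0.95 and 0.89, and Klc4, 207 bases from Mrpl2, by -0.94 and -1.04 where Mrpl2 changed by 0.53 and 0.59. Fau, which encodes a cytosolic ribosomal protein and lies 59 bases from Mrpl49, changed by -0.06 and -0.05 where Mrpl49 changed by 0.39 in both strains.

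Another protein-coding gene overlapped 26 members. Among them were risers given with every library, namely Mrpl36 (overlapped by Ndufs6), Mrpl18 (Tcp1), Mrpl19 (Gcfc2), Mrps18a (Rsph9) and Mrpl40 (Gm28539). Ndufs6 itself changed by 0.52 in PRB and 0.56 in PRA, where Mrpl36 changed by 0.65 and 0.64. The part of shared reads in these rises was not tested. Whether the counting used strand is not given in the sources used here, so reads of a member and of an overlapping partner may not be told apart. Among those 26, 22 rose and 1, Mrpl24, fell in each strain. Among the 50 members that no protein-coding gene overlaps, 47 rose in each strain, 1 fell in PRB and 0 fell in PRA, with a median log2 change of 0.53 in PRB and 0.55 in PRA. Over all features, 36.2% rose and 32.9% fell in PRB, and 36.6% rose and 33.2% fell in PRA.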

How the data were processed

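RNA-seq of whole mouse uterus gave 16 libraries in 4 groups of 4. The table the authors deposited holds 1 FPKM value for each feature in each library. The submitters' processing notes name, without role or order, the genome build mm10 and the tools Cuffdiff, TopHat2 (version 2.0.4) and Cufflinks (version 2.0.2). The sources used here give no annotation, strandedness or scaling between libraries, and no fragment counts were used, so the depth behind each value is unknown. Groups follow the sample titles, their characteristics and the design text. The treatment field of the labels speaks instead of mated females on day 4 of pregnancy, and this conflict could not be settled. The labels call the 4 libraries of a group biological replicates.

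Values were analysed as log2(FPKM + 1), which understates changes at low levels. The 15408 features that averaged 1 FPKM or more were tested. A linear model with a mean for each group was fitted with limma 3.58.1 in R 4.3.3, with an intensity trend and two-sided moderated tests. The Benjamini-Hochberg adjustment covered every feature tested. Rose, fell and called are used of genes whose adjusted p was under 0.05. Log2 differences are P4 minus oil or PRB minus PRA, with the SE of the fit. The procedure was tested on simulated data.

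The members and all companion lists were chosen with earlier results of these data known. Values in every library were given for the 5 largest increases per strain, for the members that fell (2 in PRB, 1 in PRA), for all members called between strains, for the 3 highest and 3 lowest members and for the Mrps18 paralogues. They were also given for Mrpl23 and Mrpl48, which passed the test in neither strain, for Pprc1 and Ppargc1a, and in PRB for Mterfd2. Up to 4 called genes were named from each companion list, by largest change. Nrf1 and Gabpa were named in addition, after their values were seen. Alternatives were other pseudocounts (0.1 and 0.5), no filter or a minimum mean of 5 FPKM, median-ratio scaling, quantile normalization, the libraries of a contrast alone, no trend, a replicate block, and each library left out in turn. Positions are from GENCODE M21, and promoters from RefSeq (GRCm38.p6).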

Additional observations from a re-analysis of the deposited data

Results flagged for a closer look

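In groups of 4, 1 library stood apart from the other 3 by Dixon's criterion in 6 of 80 groups examined over 20 genes, where chance flags about 5%. Mrpl18 was 51.2 FPKM in PRB P4 replicate 3, against 55.4 to 55.9 in the other PRB P4 libraries. Mrps18b was 23.4 FPKM in PRB oil replicate 2, against 27.1 to 27.7 in the other PRB oil libraries. In the same library Mrpl35 was 6.71 FPKM, against 7.14 to 7.18, and Mrps21 was 90.4 FPKM, against 98.5 to 99.3. Mrpl19 was 14.1 FPKM in PRA P4 replicate 1, against 13.0 to 13.2 in the other PRA P4 libraries. Mrpl39 was 9.79 FPKM in PRA oil replicate 3, against 9.08 to 9.20 in the other PRA oil libraries.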

How the results depend on the processing

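The number of members that rose with P4 was 69 in each strain, 67 to 70 in either strain when 1 library was left out, and 56 in PRB and 60 in PRA under quantile normalization, which lowered the members' median log2 change to 0.36 in PRB and 0.42 in PRA. The lower members numbered 5 in PRA and 3 in PRB under quantile normalization, against 1 and 2, and 0 to 2 in PRB with 1 library left out. Between PRB and PRA with P4, 2 higher members became 0 with the contrast's libraries alone and 1 to 4 with 1 library left out. The 5 lower ones became 2 without a filter, 3 at a minimum mean of 5 FPKM, 1 with median-ratio scaling, 3 with the contrast's libraries alone, 3 without an intensity trend, and 1 to 6 with 1 library left out. Counts for PRB against PRA with oil and for the difference of responses were 0 throughout. Of 205 called gene results, 174 kept direction and call under every alternative that gave a value, 25 of them, or 24 for Nars2 and Ppargc1a, which the minimum mean of 5 FPKM removed. Under quantile normalization the P4 change turned negative in PRB for Mrpl9 (-0.017), Mrpl10 (-0.064), Mrpl14 (-0.26), Mrpl23 (-0.094), Mrpl28 (-0.040), Mrpl30 (-0.061), Mrpl33 (-0.093), Mrpl34 (-0.13), Mrpl48 (-0.10), Mrps15 (-0.0076) and Mrps33 (-0.038). In PRA it did so for Mrpl9 (-0.17), Mrpl14 (-0.11), Mrpl23 (-0.12), Mrpl30 (-0.10), Mrpl48 (-0.10), Mrps6 (-0.11) and Mrps33 (-0.0074). With 1 library left out, changes near 0 spanned both signs for Mrpl14 (-0.030 to 0.027) and Mrpl48 (-0.0014 to 0.065) in PRB, and for Mrpl9 (-0.022 to 0.048), Mrpl23 (-0.016 to 0.034) and Mrpl48 (-0.012 to 0.036) in PRA. The cause of these shifts was not tested. Same-numbered libraries showed little shared deviation (r of -0.229 to 0.312 over 24 pairs, 6 of them over 0.1). Their median r was 0.0324, against -0.00277 in other pairs. Weak correlations cannot show that samples were unpaired, so whether the numbers pair samples stays unknown. With the replicate number as a block, 69 members rose and 2 fell in PRB, 68 rose and 1 fell in PRA, and 2 were higher and 4 lower in PRB than in PRA with P4. Of 16 libraries, 4 correlated best with their own number. Depth is unknown, so no counting error is given for any level.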
